A study of Homo sapiens with 12 samples.

Results

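MAPK feedback genes are switched on by the RAS to ERK signalling cascade, and 10 genes listed under that name were followed across all samples. The phosphatase genes DUSP4, DUSP5 and DUSP6 and the Sprouty and SPRED genes SPRY2, SPRY4, SPRED1 and SPRED2 encode inhibitors that feed back on the cascade. EGR1, ETV5 and PHLDA1 were listed as genes induced by ERK, and "feedback genes" below is a name for all 10. The genes were chosen by symbol, and all 10 were found among the 20030 rows of the expression table. Both lines, MOLM-13 and THP-1, derive from human acute myeloid leukemia and carry MLL rearrangements. MOLM-13 carries an internal tandem duplication in the receptor tyrosine kinase gene FLT3, whereas THP-1 has wild-type FLT3 and a mutated NRAS gene. Each line was given either DMSO, the control, or JOA (Jiyuan oridonin A, an ent-kaurene diterpenoid isolated from an Isodon plant) and collected for mRNA-seq after 48 h by the sample labels and the methods, while a figure legend gives a longer time. There were 3 libraries in each of 4 groups, 12 in all: control MOLM-13 cells, MOLM-13 cells with 0.5 μM JOA, control THP-1 cells and THP-1 cells with 2 μM JOA. Line and dose therefore cannot be told apart in any contrast of the JOA effects. Nothing in the sample labels says that the 3 libraries of a group came from separate cultures, so p-values measure only the spread between these libraries, which may be technical.

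Receptor tyrosine kinases such as FLT3 load RAS with GTP, and RAS then activates the kinases RAF, MEK and ERK in turn. ERK induces transcription factors of the EGR and PEA3 families, and it also induces its own inhibitors: dual-specificity phosphatases that remove the activating phosphates from ERK, and Sprouty and SPRED proteins that act farther up, between the receptor, RAS and RAF. Because these genes follow ERK output, they are widely used as a transcript readout of the pathway in leukemia cells with FLT3 or RAS mutations.

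Levels are in FPKM, fragment numbers that the authors divided by exon length and by the mapped fragments of the library, and values for a group are listed in the order of replicates 1, 2 and 3. Differences are on the log2(FPKM + 0.1) scale, which understates changes of low genes. A gene was called at a limma adjusted p under 0.05 over all genes tested and an absolute log2 difference of at least 0.58. Within a line, log2 values of any pair of libraries correlated at 0.988 to 0.996. Of 8 myeloid markers (among them CD33, SPI1, LYZ and MPO), 8 had a mean of at least 1 FPKM in each group, and the 3 erythroid markers were listed at 0 in every library. The summed T cell markers (CD3E, CD3D) reached 3.79 FPKM in MOLM-13 and 0.0257 FPKM in THP-1 libraries, and the summed B cell, epithelial and fibroblast markers reached at most 1.08, 2.52 and 1.04 FPKM. Sequencing depth is unknown. The RNA is from whole cultures, in which fewer cells of a kind and less RNA per cell cannot be told apart.

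The untreated lines differed in most of these genes, whereas with JOA 1 of them, EGR1 in THP-1 cells, was called, and that in a paired fit. Without JOA, DUSP4, DUSP6, SPRY2 and SPRED2 were higher in THP-1 than in MOLM-13 cells and SPRED1 and PHLDA1 were lower, so that 6 of 10 were called, as were 44% of the 12635 genes tested. With JOA, 0 of the 9 genes above the filter (a mean of at least 0.1 FPKM) were called in MOLM-13 cells by limma. In the same fit 0% of 11693 genes were called, 481 genes (4.11%) had an unadjusted p under 0.05, and among the feedback genes SPRY4 was the 1 that did. In THP-1 cells 0 of 10 were called, beside 17 of 12712 genes (0.134%), while EGR1 and ETV5 had an unadjusted p under 0.05, as did 16.9% of all genes. EGR1 was called once the replicate number entered the limma fit as a block, giving 1 of 10 genes beside 1.27% of all genes (161). Equal replicate numbers were taken to pair control and JOA libraries within a line, which the labels do not state.

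**Figure D1:**
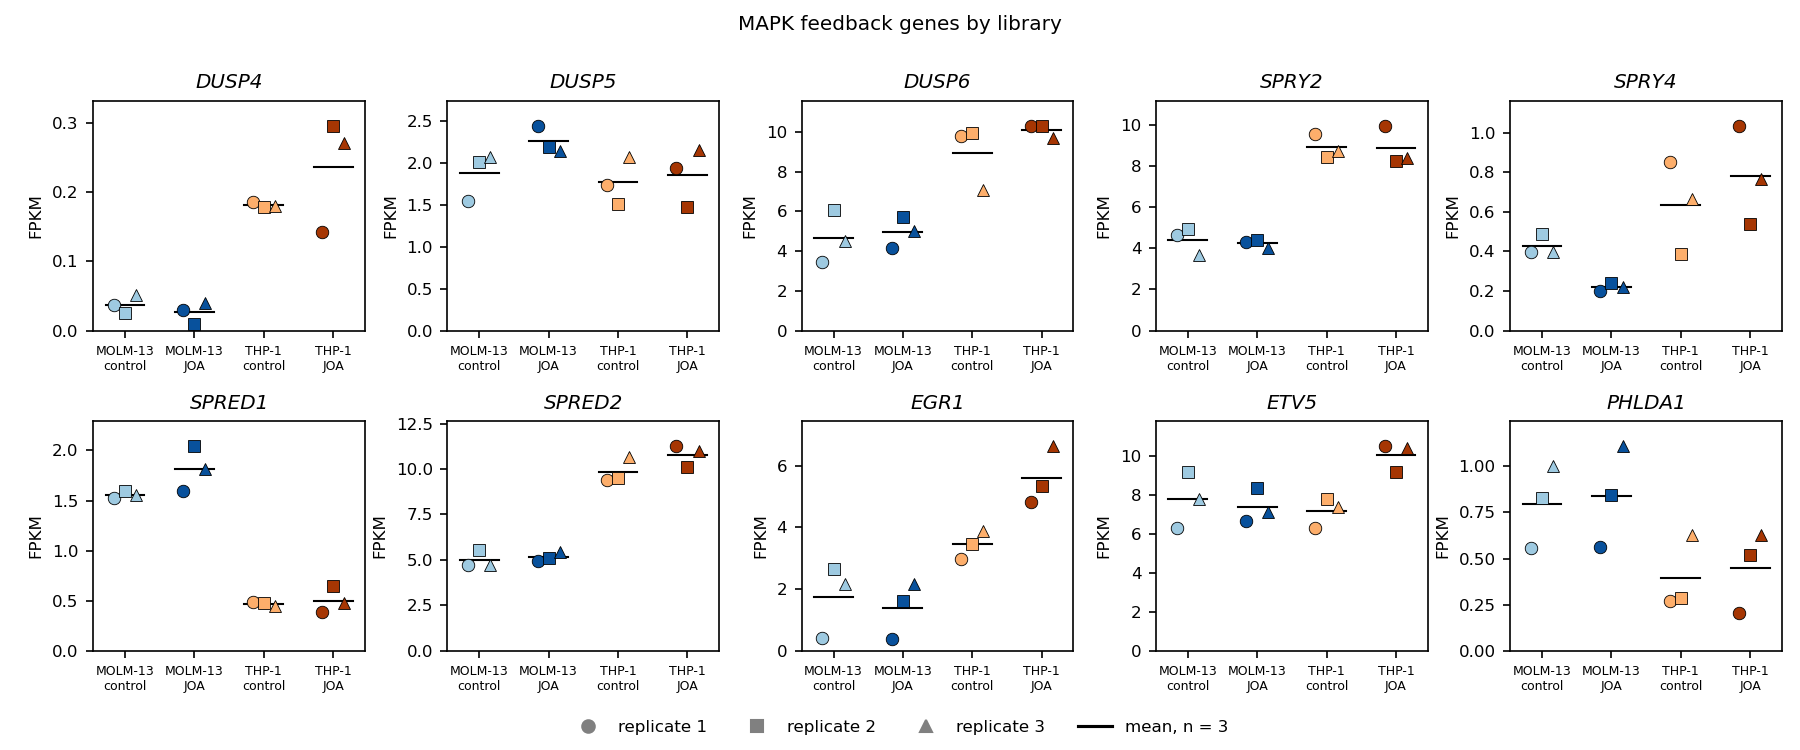
Each panel shows 1 gene, with FPKM on a linear axis that starts at 0 and 1 point per library (circle, square and triangle for replicates 1, 2 and 3), and the bar marks the mean of 3 libraries. SPRY4 is lower in all 3 JOA libraries of MOLM-13, EGR1 and ETV5 are higher in all 3 JOA libraries of THP-1, and the replicate 1 circles of EGR1 in MOLM-13 sit near 0.4 FPKM under both treatments.

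The phosphatases were represented over a wide range of levels, from DUSP6 at several FPKM to DUSP4 near the limit of detection. DUSP6 (chr12:89347232-89353271, minus strand, hg38) encodes a cytoplasmic phosphatase that acts on ERK. In MOLM-13 cells it was at 3.43, 6.06 and 4.53 FPKM in control libraries and at 4.16, 5.69 and 5.02 FPKM with JOA. In THP-1 cells it was at 9.80, 9.93 and 7.09 FPKM without JOA and at 10.3, 10.3 and 9.68 FPKM with it. Every THP-1 library lay above every MOLM-13 library, and within a line the control and JOA values overlapped. Control THP-1 cells had 1.91 times the mean level of control MOLM-13 cells, a log2 difference of 0.94 (SE 0.21, adjusted p = 0.00366 by limma). The JOA effect on DUSP6 was 0.11 (95% interval -0.34 to 0.56) in MOLM-13 and 0.19 (-0.10 to 0.48) in THP-1 cells, both on the log2 scale. All 3 same-numbered pairs of THP-1 were higher with JOA, the pair with replicate 3 most, by 0.44.

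DUSP5 (chr10:110497838-110511544, plus strand) encodes a nuclear phosphatase of ERK. Its MOLM-13 values were 1.54, 2.01 and 2.06 FPKM in control cells and 2.44, 2.19 and 2.14 FPKM with JOA, so the lowest JOA library lay just above the highest control library. The log2 difference was 0.27 (SE 0.13, 95% interval -0.03 to 0.56, adjusted p = 1.00 by limma), and it was 0.14 without control replicate 1 and 0.08 without both replicate 1 libraries, an alternative added after the data were seen. In THP-1 cells DUSP5 was at 1.73, 1.51 and 2.07 FPKM without JOA and 1.93, 1.47 and 2.15 FPKM with it. Those groups overlapped, the log2 difference was 0.05 (-0.32 to 0.43), and the control lines did not separate either (-0.08, SE 0.15, adjusted p = 0.676 by limma).

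DUSP4 (chr8:29333064-29350668, minus strand), a nuclear phosphatase of ERK and related kinases, was scarcely expressed. Its MOLM-13 libraries held 0.0366, 0.0249 and 0.0513 FPKM in control and 0.0302, 0.0101 and 0.0404 FPKM with JOA, below the filter, so that its MOLM-13 test comes from a fit in which low genes were kept. THP-1 libraries held 0.185, 0.178 and 0.181 FPKM in control and 0.142, 0.297 and 0.271 FPKM with JOA. The lines did not overlap, with control means 4.83 times apart and a log2 difference of 1.04 (SE 0.18, adjusted p = 0.000862 by limma), which fell to 0.19 with 1 FPKM added in place of 0.1. JOA replicate 1 of THP-1 lay below all 3 controls and JOA replicates 2 and 3 above them, a log2 difference of 0.23 (95% interval -0.31 to 0.76).

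The Sprouty and SPRED genes split between the lines, SPRY2 and SPRED2 being higher and SPRED1 lower in THP-1. SPRY2 (chr13:80335976-80340951, minus strand) was at 4.64, 4.93 and 3.68 FPKM in control MOLM-13 cells and 4.32, 4.41 and 4.03 FPKM with JOA. In THP-1 cells it was at 9.55, 8.45 and 8.73 FPKM in control and 9.98, 8.25 and 8.39 FPKM with JOA. The ranges of the lines lay far apart, with 2.02 times the mean level in control THP-1 cells (log2 difference 1.01, SE 0.12, adjusted p = 8.97e-05 by limma). SPRY2 was the gene least moved by JOA, with log2 differences of -0.04 (95% interval -0.30 to 0.22) in MOLM-13 and -0.01 (-0.21 to 0.19) in THP-1 cells.

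SPRED2 (chr2:65310851-65432637, minus strand) encodes a protein that brings neurofibromin, the RAS inactivator, to the membrane. It was at 4.74, 5.54 and 4.73 FPKM in control MOLM-13 cells and 4.97, 5.09 and 5.44 FPKM with JOA. In THP-1 cells the values were 9.38, 9.53 and 10.7 FPKM in control and 11.3, 10.1 and 10.97 FPKM with JOA. Again all THP-1 libraries exceeded all MOLM-13 libraries (log2 difference of the controls 0.97, SE 0.09, adjusted p = 2.81e-05 by limma), and JOA and control overlapped in each line. The JOA effect was 0.05 (-0.15 to 0.25) in MOLM-13 and 0.13 (-0.04 to 0.30) in THP-1 cells on the log2 scale.

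SPRED1 (chr15:38252326-38357249, plus strand), a relative of SPRED2 with the same partner, went the other way between the lines. MOLM-13 libraries had 1.52, 1.59 and 1.56 FPKM in control and 1.60, 2.05 and 1.81 FPKM with JOA, whereas THP-1 libraries had 0.483, 0.476 and 0.449 FPKM in control and 0.383, 0.648 and 0.475 FPKM with JOA. Control MOLM-13 cells had 3.32 times the level of control THP-1 cells, a log2 difference of -1.54 for THP-1 against MOLM-13 (SE 0.11, adjusted p = 6.29e-06 by limma). With JOA, SPRED1 in MOLM-13 was higher by 0.20 (95% interval -0.06 to 0.46, adjusted p = 1.00 by limma) without overlap, although JOA replicate 1 exceeded the highest control by little. In THP-1 the JOA values lay on both sides of the controls.

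SPRY4 (chr5:142310427-142326455, minus strand) was the low-level member of the Sprouty genes. Its JOA differences had opposite signs in the lines, as had those of EGR1, ETV5 and DUSP4. In MOLM-13 cells it was at 0.398, 0.486 and 0.398 FPKM in control libraries and at 0.198, 0.238 and 0.221 FPKM with JOA. Each JOA library had between 0.490 and 0.555 times the level of the control library with its number, and no values overlapped. The mean was 0.427 ± 0.0509 FPKM (SD, n = 3) in control and 0.219 ± 0.0203 FPKM with JOA, a log2 difference of -0.72 (SE 0.18, 95% interval -1.13 to -0.32). A difference of at least this size was found for 0.505% of the genes tested, and the unadjusted p was 0.00321, but the adjusted p was 1.00 by limma and 0.330 with the replicate block, so SPRY4 was not called. Its log2 difference lay between -0.77 and -0.65 when any 1 library was left out, and at -0.23 with 1 FPKM added in place of 0.1.

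In THP-1 cells SPRY4 was at 0.853, 0.385 and 0.666 FPKM in control and 1.03, 0.538 and 0.766 FPKM with JOA. The groups overlapped because replicate 2 was low and replicate 1 high under both treatments, yet each JOA library exceeded its same-numbered control, by 0.25, 0.40 and 0.18 on the log2 scale. The mean difference was 0.27 (SE 0.29, 95% interval -0.40 to 0.95, adjusted p = 0.681 by limma, 0.228 with the replicate block). Left without control replicate 2 it was 0.00, and without JOA replicate 1 it was 0.07. Between the control lines SPRY4 was not called (0.43, SE 0.24, adjusted p = 0.148 by limma), but it was called without THP-1 control replicate 2 (0.70, adjusted p = 0.0126). The gene is overlapped on the other strand by SPRY4-AS1 and by 2 annotated RNA family entries, and whether the counting used strand is not stated.

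The RefSeq table (GRCh38.p14) held promoters for 7 of the 10 genes, and those of SPRY4 and EGR1, the genes with the largest JOA differences in MOLM-13 and THP-1 cells, are printed as the 250 bases upstream of a start. The SPRY4 window, chr5:142324248-142324497 on the minus strand, lies inside the annotated span of the gene. Capitals mark a match to the EGR motif GCGNGGGCG on either strand, at position -195.
SPRY4: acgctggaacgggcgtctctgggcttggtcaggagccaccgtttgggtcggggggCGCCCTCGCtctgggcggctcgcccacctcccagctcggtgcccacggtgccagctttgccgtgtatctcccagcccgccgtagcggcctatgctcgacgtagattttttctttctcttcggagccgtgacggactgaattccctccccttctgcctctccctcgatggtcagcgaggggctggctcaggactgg
The EGR1 window, chr5:138465229-138465478 on the plus strand, has in capitals an EGR match at -198 and CArG boxes, the sequence bound by serum response factor, at -105 and -83.
EGR1: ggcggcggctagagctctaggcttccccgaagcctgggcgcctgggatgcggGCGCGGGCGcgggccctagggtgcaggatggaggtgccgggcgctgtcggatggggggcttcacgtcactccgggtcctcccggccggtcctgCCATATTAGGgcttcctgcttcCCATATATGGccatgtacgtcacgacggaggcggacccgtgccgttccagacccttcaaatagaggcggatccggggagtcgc
A CArG box was found in 1.16% of 35116 promoter windows of this length and in 1 of the 10 windows of the 7 genes, that of EGR1. The EGR motif was found in 8.41% of all windows and in 3 of the 10, from EGR1, SPRY4 and SPRY2. SPRY2 has more than 1 window, and its matches lie at -134 and -41 of 1 of them. The letters CCGGAAG (ETS), TGANTCA (AP-1) and TGACGTCA (CRE), present in 8.52%, 6.57% and 1.65% of all windows, were in 0 of the 10. TATAAA (10.7% of all windows) was in 1 of the 10, a window of SPRED2. All were searched on both strands, and a match is only a match of letters.

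The transcription factor genes EGR1 and ETV5 were the feedback genes whose THP-1 values with JOA all lay above the controls. EGR1 was called with the replicate block, and ETV5 was called in neither fit. EGR1 (chr5:138465490-138469315, plus strand) encodes an immediate-early zinc finger factor. Its THP-1 values were 2.99, 3.48 and 3.88 FPKM in control and 4.82, 5.33 and 6.64 FPKM with JOA. No values overlapped, and each JOA library had between 1.53 and 1.71 times the level of its same-numbered control. Mean EGR1 was 3.45 ± 0.447 FPKM in control and 5.60 ± 0.938 FPKM with JOA (SD, n = 3), which is a log2 difference of 0.68 (SE 0.14, 95% interval 0.36 to 1.00). Its adjusted p was 0.0805 by limma and 0.00659 with the replicate block, under which it was called. Leaving out 1 library at a time kept the difference between 0.55 and 0.78.

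In MOLM-13 cells EGR1 varied more between replicate numbers than between treatments. It was at 0.426, 2.66 and 2.16 FPKM in control and at 0.382, 1.61 and 2.16 FPKM with JOA. Replicate 1 was low under both treatments, replicate 2 was lower with JOA and replicate 3 was level. The log2 difference was -0.27 with a 95% interval from -1.91 to 1.36 (adjusted p = 1.00 by limma, 0.549 with the replicate block), and it ranged from -1.02 without control replicate 1 to 0.40 without JOA replicate 1. Both of those fits kept a low replicate 1 library without its same-numbered partner. With both replicate 1 libraries left out, the log2 difference was -0.35. Control THP-1 cells exceeded control MOLM-13 cells in every library (log2 difference 1.25, SE 0.54), but the adjusted p was 0.0692 by limma, so EGR1 was not called.

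ETV5 (chr3:186046308-186110318, minus strand), an ETS factor of the PEA3 family, was at 6.31, 7.80 and 7.36 FPKM in control THP-1 cells and at 10.5, 9.16 and 10.4 FPKM with JOA. No values overlapped. The mean was 7.16 ± 0.764 FPKM in control and 10.03 ± 0.758 FPKM with JOA (SD, n = 3), 1.40 times the control level and a log2 difference of 0.48 (SE 0.09, 95% interval 0.27 to 0.70). The adjusted p was 0.0755 by limma and 0.0254 with the replicate block, and the difference was below the 0.58 needed for a call. On the adjusted p alone, the block passed 2 of the 10 genes in THP-1, EGR1 and ETV5, beside 8.06% of all genes. In MOLM-13 cells ETV5 was at 6.30, 9.19 and 7.80 FPKM in control and 6.65, 8.37 and 7.12 FPKM with JOA, overlapping groups with a log2 difference of -0.06 (-0.38 to 0.26). The control lines overlapped as well (-0.10, SE 0.14).

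PHLDA1 (chr12:76025447-76033932, minus strand) encodes a pleckstrin homology-like domain protein induced downstream of ERK. In MOLM-13 cells it was at 0.559, 0.826 and 1.00 FPKM in control and 0.561, 0.844 and 1.11 FPKM with JOA. In THP-1 cells it was at 0.268, 0.287 and 0.628 FPKM in control and 0.205, 0.519 and 0.625 FPKM with JOA. The MOLM-13 values repeated from control to JOA library by library, and the JOA effects were 0.06 (95% interval -0.54 to 0.65) in MOLM-13 and 0.13 (-0.75 to 1.01) in THP-1 cells on the log2 scale. PHLDA1 was called lower in control THP-1 than in control MOLM-13 cells (-0.90, SE 0.30, adjusted p = 0.0250 by limma) although THP-1 replicate 3 exceeded MOLM-13 replicate 1. That call was lost, at adjusted p between 0.0648 and 0.0871, without MOLM-13 control replicate 2 or 3 or THP-1 control replicate 1 or 2.

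Ordered by mean level in control cells, ETV5 led in MOLM-13 (7.76 FPKM), clear of SPRED2 (5.01), DUSP6 (4.67) and SPRY2 (4.42), whose ranges overlapped one another. DUSP5 (1.87), EGR1 (1.75) and SPRED1 (1.56) followed and also overlapped, then came PHLDA1 (0.796), whose range met that of EGR1, and SPRY4 (0.427) and DUSP4 (0.0376), each below its neighbour without overlap. In THP-1 the order was SPRED2 (9.86 FPKM), DUSP6 (8.94), SPRY2 (8.91) and ETV5 (7.16). SPRED2, DUSP6 and SPRY2 overlapped one another, and ETV5 overlapped DUSP6 and not the other two. EGR1 (3.45) and DUSP5 (1.77) each stood apart, SPRY4 (0.635), SPRED1 (0.469) and PHLDA1 (0.394) overlapped, and DUSP4 (0.182) was lowest.

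**Figure D2:**
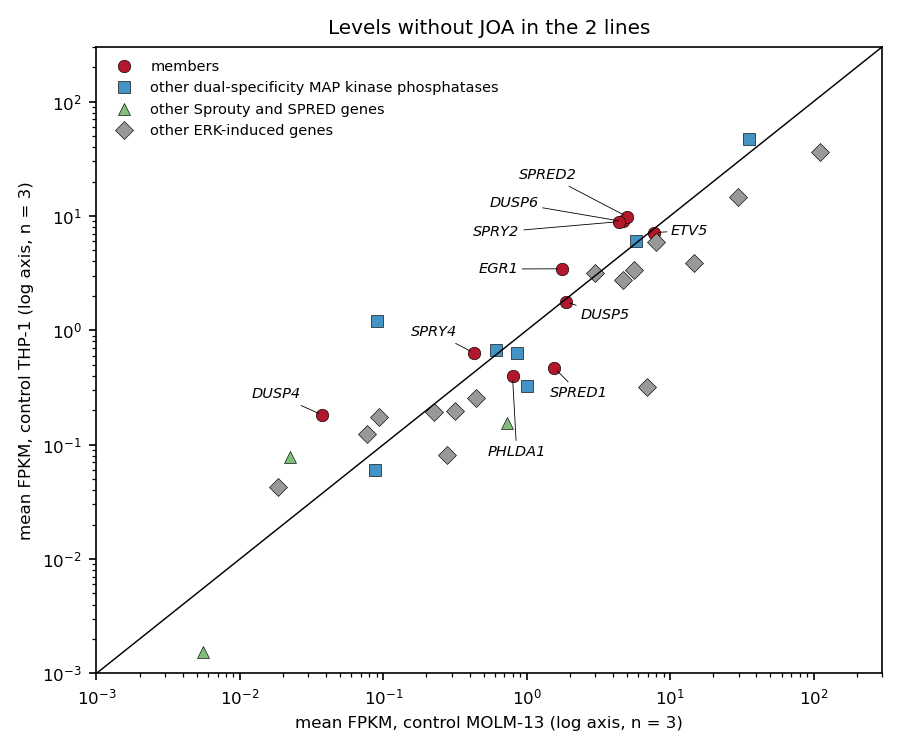
Mean FPKM of 3 control libraries in MOLM-13 (horizontal, log axis) and THP-1 (vertical, log axis), with a line of equal level. The 10 feedback genes (circles, named) lie on both sides of the line, with SPRED2, DUSP6, SPRY2, EGR1, SPRY4 and DUSP4 above it, while most other ERK-induced genes (diamonds) lie below it. Genes with a mean of 0 in a line are not drawn.

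Across the feedback genes, the median log2 difference of control THP-1 against control MOLM-13 cells was 0.69, beside 0.06 over all genes. In 6 of the 10 the values of the control lines did not overlap, as in 74.8% of all genes. Of the other ERK-induced genes, 7 of the 14 above the filter were called lower in THP-1 and 0 higher, a number of calls near the 44% of all genes called in this contrast. Their median was -0.67. The immediate-early genes IER3 (-4.04) and FOS (-1.87) and the growth regulator MYC (-1.60, from 111 to 36.4 FPKM) were the lowest on the log2 scale, and IER2 went from 29.8 to 14.6 FPKM. ETV4 (-0.73), a relative of ETV5, FOSL1 (-0.72), a partner of JUN proteins, and the cyclin gene CCND1 (-0.62) were the other three. Feedback genes and other ERK-induced genes therefore had medians of opposite sign in the same libraries. The difference between the lists was not tested.

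Among relatives of the feedback genes, DUSP9, a cytoplasmic ERK phosphatase, was higher in control THP-1 cells (log2 difference 2.71, adjusted p = 6.21e-05) and DUSP1, an immediate-early phosphatase, was lower (-1.54, adjusted p = 0.0105), giving 2 called of 6 above the filter. SPRY1, the 1 other Sprouty gene above the filter, was lower (-1.66). Of the 22 genes of the RAS to ERK cascade and its adaptors, 3 were called higher in THP-1 and 5 lower. As 44% of all genes were called between the lines, the calls among the other phosphatase genes, the cascade genes and the ERK substrates below were no more frequent than over all genes. NRAS was at 24.99 FPKM in MOLM-13 and 54.2 FPKM in THP-1 control cells (1.11), and NF1, the neurofibromin gene (0.83), and the adaptor gene GAB1 (2.05) were the other genes called higher. GAB1 was close to 0 in MOLM-13. The adaptor gene GAB2 (-1.15), the scaffold gene KSR1 (-1.07), the MEK gene MAP2K1 (-0.78), the RAF gene ARAF (-0.76) and RASA1 (-0.75), which encodes a RAS GTPase activator, were lower. Of 12 ERK substrates and output kinases, the transcription factor genes ETS1 (2.19) and SRF (0.63) were called higher and ETS2 (-1.28), RPS6KA3 (-0.97) and RPS6KA1 (-0.79) lower, the RPS6KA genes encoding RSK kinases.

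**Figure D3:**
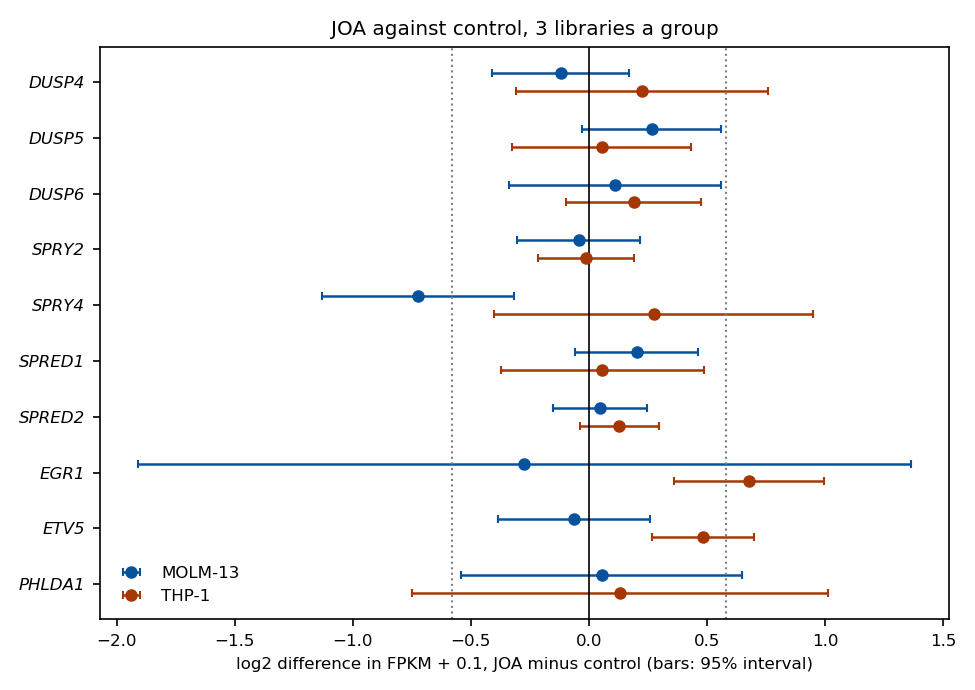
Log2 difference of JOA against control for each gene (points) with its 95% interval (bars), MOLM-13 in blue and THP-1 in orange, and dotted lines at the fold threshold of 0.58 in either direction. The interval lies below 0 for SPRY4 in MOLM-13 and above 0 for EGR1 and ETV5 in THP-1, and includes 0 for every other gene. DUSP4 in MOLM-13 is from the fit without the filter.

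Taken over the list, JOA values of MOLM-13 did not overlap the controls for 3 of 9 genes above the filter, SPRY4 lower and DUSP5 and SPRED1 higher, beside 9.64% of all genes. Of the 9, 5 were higher and 4 lower with JOA, with a median log2 difference of 0.05, beside 0.01 over all genes. In THP-1 cells 9 of 10 were higher with JOA, as were 56.7% of all genes, SPRY2 being the exception at -0.01. The median was 0.16 beside 0.02 over all genes. Values did not overlap for 2 of 10, EGR1 and ETV5, which is below the 23.4% of all genes.

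**Figure D4:**
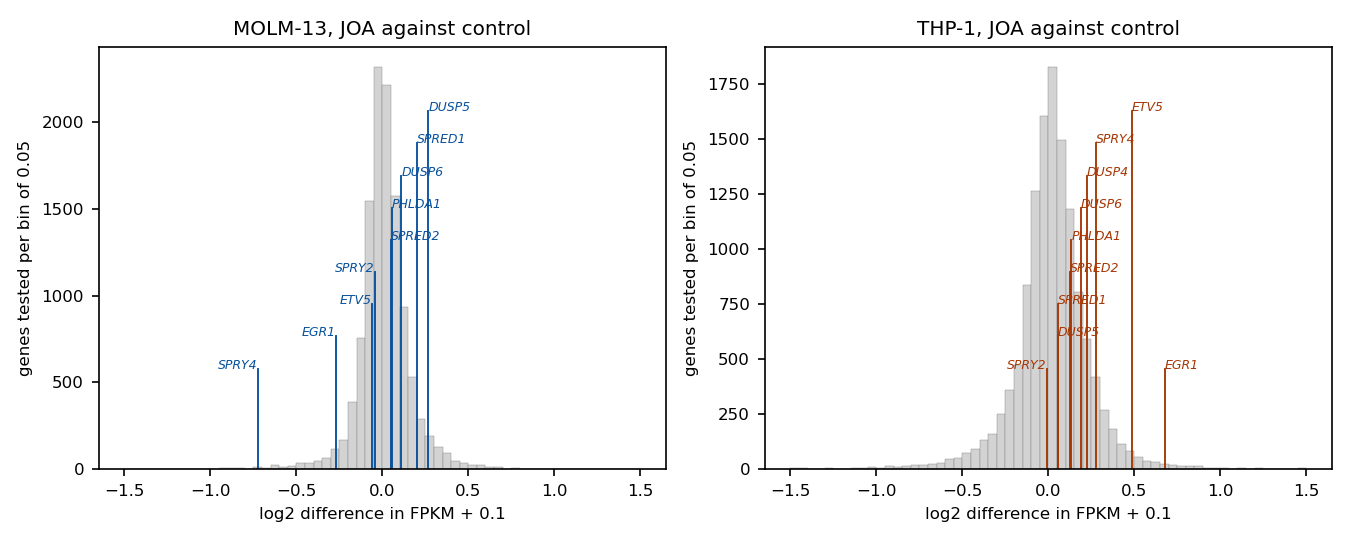
Number of genes tested per bin of 0.05 in log2 difference (JOA against control), in MOLM-13 (left) and THP-1 (right). Vertical lines mark the members above the filter, and their heights only space the names. SPRY4 at -0.72 lies in the outer tail in MOLM-13, and EGR1 at 0.68 and ETV5 at 0.48 lie in the upper tail in THP-1.

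Whether JOA acted differently on these genes in MOLM-13 and THP-1 was tested by an interaction term, the THP-1 effect minus the MOLM-13 effect, over all 12 libraries. By limma 0 of the 10 genes passed an adjusted p of 0.05, as did 0% of 12626 genes, of which 914 had an unadjusted p under 0.05 (7.24%). SPRY4 and ETV5 were the 2 members among those. For SPRY4 the difference of the effects was 1.00 on the log2 scale (SE 0.35, 95% interval 0.24 to 1.75, adjusted p = 0.559 by limma, 0.0676 with the replicate block). ETV5 had 0.55 (0.14 to 0.95, adjusted p = 0.545, 0.115 with the block). For EGR1 the value was 0.95. Without the block its interval ran from -0.90 to 2.80 (SE 0.85, adjusted p = 0.882 by limma), which holds both no difference and a large one. With the block the SE was 0.18 and the unadjusted p 0.000537 by limma, but the adjusted p of 0.0762 did not pass. An unadjusted p under 0.05 with the block was found for 3 of the 10 genes, beside 14.9% of all genes. The MOLM-13 and THP-1 effects do not share control libraries, but each shares its controls with the contrast of the untreated lines.

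Of the other ERK-induced genes in THP-1, 11 of 15 above the filter had a higher mean with JOA and 4 a lower one, beside 56.7% higher over all genes, with a median of 0.25 on the log2 scale. At both thresholds 0 were called by limma, and 4 of 15 had an unadjusted p under 0.05, beside 16.9% of all genes. FOSL1 was at 3.49, 3.30 and 3.28 FPKM in control and 5.08, 4.94 and 4.52 FPKM with JOA, without overlap. Its log2 difference of 0.52 (SE 0.08) had an adjusted p of 0.0497 by limma, 1 of 15 genes of the list beside 0.299% of all genes on the adjusted p alone, and of 0.00950 with the replicate block. The block also passed ETV4 (0.47, adjusted p = 0.0303), FOS (0.32, 0.0265) and MYC (-0.17, 0.0444) on the adjusted p alone, 4 of 15 with FOSL1, beside 8.06% of all genes. FOS was at 3.72, 3.95 and 3.98 FPKM in control and 4.73, 4.97 and 4.94 FPKM with JOA, again without overlap. MYC, in contrast, was lower in every JOA library (31.5 to 34.0 FPKM) than in any control (35.0 to 38.2 FPKM). In MOLM-13 the same list had a median of 0.03, with 0 of 12 genes called and 0 of 12 at an unadjusted p under 0.05 by limma. With the replicate block 3 of 12 had an unadjusted p under 0.05, beside 11.1% of all genes. FOSL1 (0.17) and FOS (0.11) were higher with JOA, as in THP-1, and ETV4 (-0.15) was lower. On the adjusted p the block passed 0 of 12 there.

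For the rest of the pathway in THP-1, 0 of 6 other phosphatase genes, 0 of 1 other Sprouty gene, 0 of 22 cascade genes and 0 of 12 ERK substrates and output kinases were called by limma, and at an unadjusted p under 0.05 there were 0, 0, 3 and 2, beside 16.9% of all genes. Their medians on the log2 scale were 0.15, 0.11, 0.03 and 0.05. With the replicate block, ELK3 (0.37, adjusted p = 0.0248), which encodes an ERK-phosphorylated partner of serum response factor and was named after its values were seen, and ETS2 (-0.36, adjusted p = 0.0348) passed on the adjusted p alone, 2 of 12 beside 8.06% of all genes. NRAS (-0.01) and NF1 (-0.16), which differed between the lines, had means within 0.20 of their controls. NF1 was nevertheless lower in every JOA library (7.55 to 8.46 FPKM) than in any control (8.66 to 9.23 FPKM). Values did not overlap for 5 of the 22 cascade genes, 4 higher and 1 lower with JOA, beside 23.4% of all genes. In MOLM-13, 0 of 6, 0 of 1, 0 of 21 and 0 of 12 were called, with 0 at an unadjusted p under 0.05 by limma. With the replicate block 2 of the 21 cascade genes had an unadjusted p under 0.05, beside 11.1% of all genes.

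EGR1 and DUSP6 differed between replicate numbers in MOLM-13, a pattern that was tested after it had been seen. With treatment held in the model, limma's F test over replicate numbers gave EGR1 an adjusted p of 0.00395 and DUSP6 one of 0.0396, 2 of 9 genes tested beside 4.54% of all genes. ETV5 (0.0520) and PHLDA1 (0.0508) came close to the threshold without passing it. In all 4 of these genes both replicate 1 libraries lay below the other 4 libraries, as they did for 13.1% of all genes. The other ERK-induced genes showed the same test passed by 6 of 12, with EGR2, EGR3, FOS and IER3 lowest in replicate 1 and ETV4 and PHLDA2 not. EGR2, for example, was at 0.0119, 0.440 and 0.492 FPKM in control and 0.0672, 0.401 and 0.687 FPKM with JOA, and IER3 at 2.93, 8.87 and 8.82 FPKM in control and 4.17, 7.56 and 8.31 FPKM with JOA. These genes were named after their values were seen. Of 21 cascade genes 1 passed, RASA1. In THP-1 cells 0 of 10 feedback genes passed, SPRY4 (adjusted p = 0.0528 by limma) and EGR1 (0.0744) being nearest, beside 3.26% of all genes, and 1 of 10, PHLDA1, was lowest in both replicate 1 libraries, beside 8.63%. The labels do not say what a replicate number stands for.

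**Figure D5:**
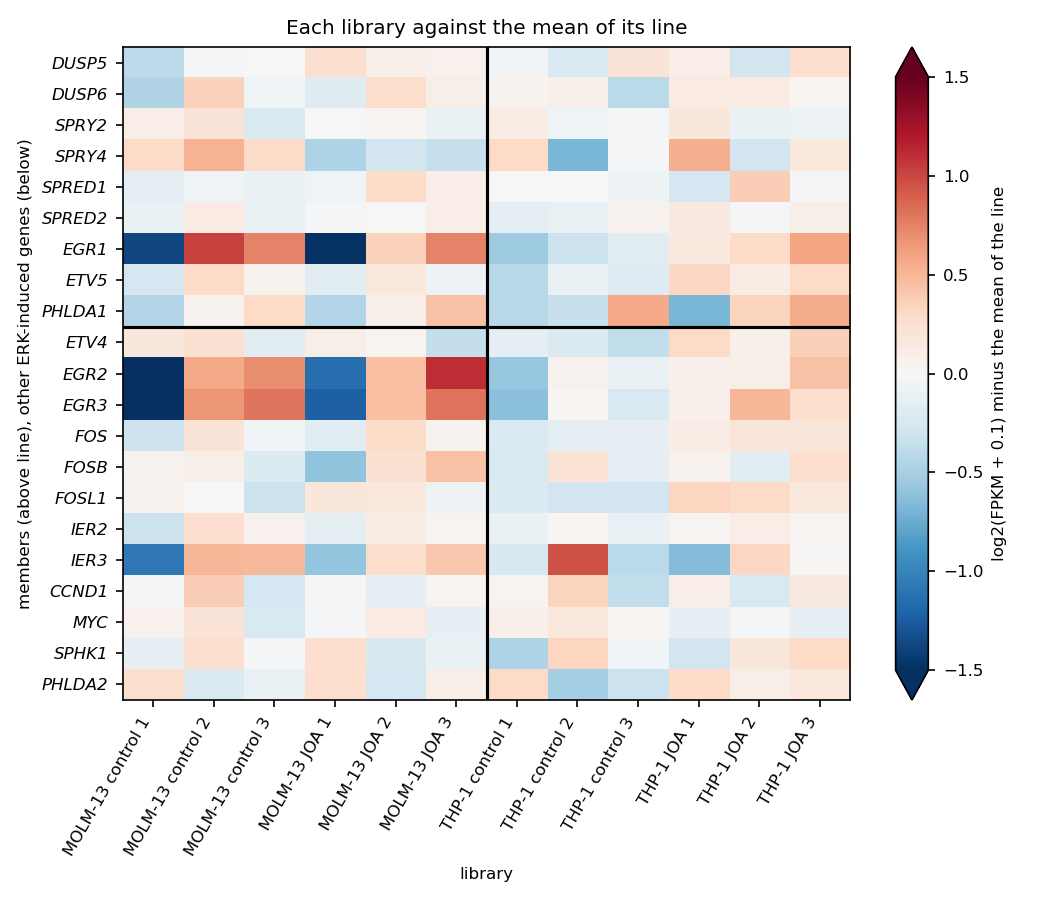
Heat map of log2(FPKM + 0.1) in each of 12 libraries minus the mean of its line, for 9 feedback genes (above the horizontal line) and 12 other ERK-induced genes (below it), in blue where lower and red where higher, with colours cut at 1.5 in either direction. EGR1, EGR2, EGR3 and IER3 are blue in both replicate 1 libraries of MOLM-13, and EGR1 and ETV5 turn from blue to red between control and JOA in THP-1.

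The genes most like DUSP6 across the 12 libraries, after the mean of each line was subtracted, were DRAM2 (Pearson r = 0.94), SARS (0.91), MAP2K5 (0.89), ABHD13 (0.89) and MANEA (0.89), among 9240 genes with a mean of at least 1 FPKM in both lines. Of the feedback genes in that set, EGR1 had 0.67 and ETV5 0.61, while SPRED2 (0.34), SPRY2 (0.15) and DUSP5 (0.08) were less like it. These values describe 12 libraries that share replicate numbers, treatments and scaling.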

How the data were processed

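Libraries were made by the authors from total RNA with a stranded mRNA kit and sequenced as paired ends. The submitters' processing notes name Trimmomatic, HISAT2, Cufflinks, HTSeq and hg38, without roles. The authors deposited 1 table of FPKM values, 12 columns and 20030 rows, of which 3488 were at 0 throughout and 27 had date-like names. Depth could not be recovered: among 1437 genes below 0.1 FPKM at most 11 shared a ratio between libraries. The authors used DESeq, which needs counts and was not run here.

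log2(FPKM + 0.1) was fitted with limma 3.58.1 (R 4.3.3; eBayes with a trend) over genes with a mean of at least 0.1 FPKM in the libraries compared, with Benjamini-Hochberg adjustment over all of them, and the procedure was tested on simulated data. With 3 against 3 libraries, an exact permutation test cannot go below p = 0.1. Replicate numbers in the labels were taken to pair control and JOA libraries within a line. Deviations from group means correlated at 0.264 to 0.398 (MOLM-13) and 0.139 to 0.319 (THP-1) for equal numbers, and at -0.259 to 0.0168 otherwise. Such deviations cancel out within a group for each gene, so positive values for equal numbers push the others down. The second range is therefore not separate evidence of pairing. The feedback genes and all lists were chosen with earlier results of these data known. Of the other lists, genes called in a comparison are named, and those most like DUSP6 by Pearson correlation. Gene positions are from GENCODE on GRCh38, and promoters from RefSeq. DUSP6, SPRY4, SPRED2, ETV5 and PHLDA1 overlap other annotated genes, and strand use in the counting is not given in the sources used here. Python 3.11.15, pandas 2.3.3 and matplotlib 3.10.9 were used for sequences and figures.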

Additional observations from a re-analysis of the deposited data

Results flagged for a closer look

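SPRY4 moved in opposite directions with JOA in the lines: all 3 same-numbered MOLM-13 pairs were lower with JOA and all 3 THP-1 pairs were higher. The difference of the effects, THP-1 minus MOLM-13, was 1.00 on the log2 scale. It was tested as an interaction and did not pass (adjusted p = 0.559 by limma, 0.0676 with the replicate block). SPRY4 is below 1.1 FPKM in every library, and leaving out 1 library or replicate 1 kept the difference between 0.73 and 1.21. Line and dose cannot be told apart in it.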

How the results depend on the processing

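Over the alternatives, 677 single-gene values were recomputed. Of these, 627 kept their direction and side of the threshold, 6 lost a call, 6 gained one and 38 changed sign. The number of feedback genes called with JOA in MOLM-13 cells went from 0 to 1 with an unadjusted p and the fold threshold (SPRY4), and in THP-1 cells from 0 to 1 with the replicate block and with an unadjusted p (EGR1). Leaving out any 1 library, or replicate 1 (added after the data were seen), kept both at 0, and kept the count between the untreated lines from 5 to 7. Over all genes, calls in THP-1 went from 17 to 161 with the block, 241 with an unadjusted p, 56 in 1 fit on all 12 libraries, 8 with 1 FPKM added, and 0 or 1 with no filter, with eBayes without trend or with a library left out. In MOLM-13 they went from 0 to at most 56, and the interaction from 0 to at most 6. As TPM, SPRY2 in THP-1 (0.014) and DUSP5 between the untreated lines (0.0028) changed sign.

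With 1 library, or replicate 1, left out, log2 differences that changed sign ranged, for JOA in MOLM-13, from -0.089 to 0.31 for DUSP6, -0.17 to 0.040 for SPRY2, -1.02 to 0.40 for EGR1, -0.20 to 0.066 for ETV5 and -0.15 to 0.29 for PHLDA1. For JOA in THP-1 they ranged from -0.056 to 0.20 for DUSP5, -0.096 to 0.040 for SPRY2, -0.11 to 0.22 for SPRED1 and -0.11 to 0.51 for PHLDA1. The interaction ranged from -0.12 to 0.28 for DUSP6, -0.053 to 0.16 for SPRY2, -0.31 to 0.0022 for SPRED1 and -0.17 to 0.46 for PHLDA1, and the difference between the untreated lines from -0.20 to 0.026 for DUSP5 and -0.24 to 0.024 for ETV5. None of these was called before or after. In the JOA fits, leaving out 1 library kept its same-numbered partner, so these ranges also hold differences between replicate numbers.

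Between the untreated lines, deviations from group means correlated at 0.0698 to 0.131 for equal replicate numbers and at -0.0794 to 0.0152 otherwise. Here too the second range is not separate evidence. The labels do not say whether the numbers pair libraries of different lines. A replicate block there called 7 of 10 genes, EGR1 being added (adjusted p = 0.0294 by limma), and the replicate block changed no other call than the EGR1 calls named. EGR1 was also called there with 1 FPKM added, without MOLM-13 control replicate 2 and without replicate 1, and DUSP4 and PHLDA1 fell below the fold threshold with 1 FPKM added. The causes were not tested. Depth is unknown, which limits what can be said of genes below 1 FPKM.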
